A study of Mus musculus with 2 samples.

Results

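Mir335, Mir483, Mir675, Mir296 and Mir298 are miRNA genes of imprinted loci, and their levels were measured by short RNA sequencing of mouse liver at embryonic day 12.5. They were taken by name from the 1973 miRNA genes of the deposited count tables, through their Ensembl identifiers, and all 5 were found. Mir335 is carried by Mest, Mir483 by Igf2, Mir675 by H19, and Mir296 and Mir298 lie beside each other near Gnas. The libraries came from B6NCrl embryos of both sexes, pooled, with no treatment named, and they form a single group. Replicate 1 was made from 120 embryo livers and replicate 2 from 88. The labels call them biological replicates 1 and 2. Both pools nevertheless carry 1 donor identifier in the labels, so the spread between them may in part be technical. With 1 group there is no contrast of conditions, and every difference below is between genes or between the 2 libraries.

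At an imprinted locus a gene is expressed mainly from the copy inherited from 1 parent. Several paternally expressed genes promote fetal growth, and several maternally expressed ones restrain it. Igf2, a paternally expressed growth factor made in large amounts by fetal liver, and H19, a maternally expressed noncoding RNA, share enhancers and a control region, so that each parental chromosome mainly expresses one of them. Mest is paternally expressed, and embryos that inherit an inactive paternal copy are small. The Gnas locus makes both maternally and paternally expressed transcripts, and the antisense transcript Nespas, from which Mir296 and Mir298 are thought to derive, is paternal. Of these miRNAs, the product of Mir675 is known to restrain placental growth and to repress the growth factor receptor gene Igf1r. The files hold no allele counts, so the parental origin given here is background knowledge and was not measured.

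The mature miRNAs are shown because the seed, bases 2 to 8 from the 5′ end, is the part that pairs with target transcripts. RefSeq (GRCm38.p6) gave 2 mature sequences for each of the 5 genes, and the seed is in capitals.
miR-335-5p: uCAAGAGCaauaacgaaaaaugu
miR-335-3p: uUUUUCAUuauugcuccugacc
miR-483-5p: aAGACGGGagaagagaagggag
miR-483-3p: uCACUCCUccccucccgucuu
miR-675-5p: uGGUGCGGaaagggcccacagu
miR-675-3p: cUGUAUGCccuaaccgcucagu
miR-296-5p: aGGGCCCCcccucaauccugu
miR-296-3p: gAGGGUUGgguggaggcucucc
miR-298-5p: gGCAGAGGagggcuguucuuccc
miR-298-3p: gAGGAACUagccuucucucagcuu

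The 10 seeds all differ from one another, and none occurs in a mature miRNA of another gene among the 1738 mature sequences of 1058 mouse miRNA genes in that table. Such seeds are common, since 1182 of 1398 seeds (84.5%) belong to 1 gene. Over bases 2 to 7 alone, 4 other genes matched a member, a comparison added after the values were seen. Of these, Mir6986 (matching miR-335-3p) had 1 and 2 sense counts in replicates 1 and 2, Mir3110 (miR-483-3p) had 1 and 3, and Mir5621 (miR-296-5p) had 5 and 0, while Mir7646 (miR-335-5p) was not analysed here. The listed genes with such a match were therefore at or near 0. The mature sequences differ in composition, from 30.4% G and C in miR-335-5p to 68.2% in miR-296-3p. Counts are per gene, so the 2 arms of a hairpin are added together here.

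The 5 hairpins lie in different kinds of transcript, given in mm10 coordinates of GENCODE M21. Mir335 (ENSMUSG00000065501.1) lies at chromosome 6, 30741299 to 30741396 (plus strand), 17.8 kb from the start of Mest, and is intronic in all 7 Mest transcripts that span it. Mir483 (ENSMUSG00000070140.1) spans chromosome 7, 142654924 to 142654996, on the minus strand, 11.8 kb from the start of Igf2, and is intronic in all 7 spanning Igf2 transcripts. The gene model Gm49394 overlaps it on the same strand. Mir675 (ENSMUSG00000076275.1) lies on the same strand, at 142577064 to 142577147, 77.8 kb from Mir483. It falls in an exon of 3 H19 transcripts and in an intron of 1, so in most models the hairpin is cut from the H19 RNA body. Mir296 (ENSMUSG00000065521.1) and Mir298 (ENSMUSG00000065410.1) span chromosome 2, 174267047 to 174267125 and 174267504 to 174267585, both on the minus strand, and 378 bases separate them. M21 has no host transcript over this pair, and Nespas ends 13.7 kb upstream of Mir298. No other miRNA gene lies within 10 kb of a member. None of the hairpins has 20 consecutive bases in common with that of another miRNA locus, and none has a gene on the other strand.

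**Figure D1:**
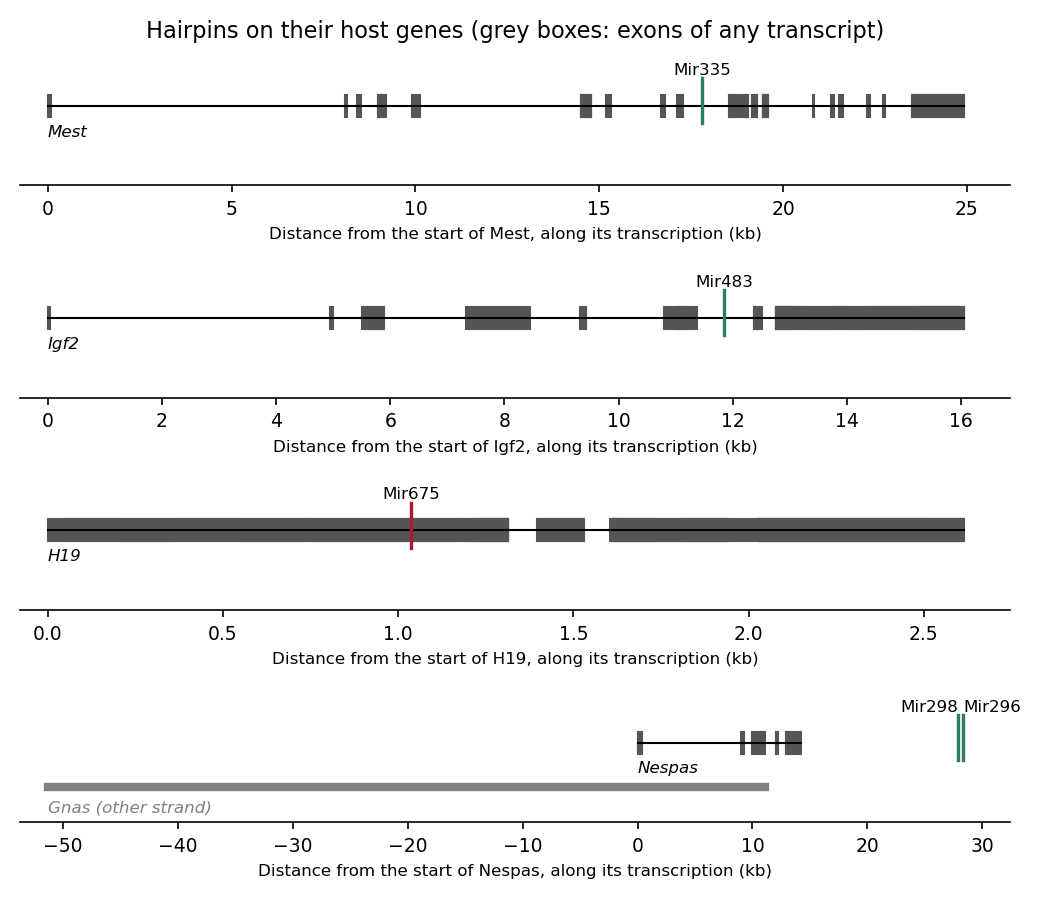
Position of each hairpin (coloured line) along its host gene, with distance from the host's start in kb on the x axis and exons of any M21 transcript as grey boxes. Mir335 and Mir483 sit between exons, Mir675 sits within an exon of H19, and Mir298 and Mir296 lie beyond the end of Nespas.

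Mir335 was far more abundant than the other 4, Mir296, Mir298 and Mir483 lay close together, and Mir675 was the lowest. Levels are given as CPM, the sense counts of a gene per 1000000 over all listed genes, from 3447858 such counts in replicate 1 and 3534816 in replicate 2. All 5 members reached 10 CPM in both libraries, as did 301 of 1973 listed genes (15.3%). Their median mean level was 3725 CPM, beside 316 CPM over the 301 genes. Together they held 6.61% of the miRNA counts in replicate 1 and 5.87% in replicate 2. In bulk tissue, fewer cells that express a miRNA and less of it per cell cannot be told apart.

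Mir335, from the paternally expressed Mest, stood at 53085 CPM in replicate 1 (183029 counts, exact 95% interval 52848 to 53322) and 47740 CPM in replicate 2 (168753 counts, 47518 to 47963). Its mean was 50413 ± 3779 CPM (SD, n = 2). It ranked 3 in each library and 4 by mean level, and it held 80.8% ± 0.689 of the counts of the 5 members. These intervals, like all given here, are Clopper-Pearson intervals that cover counting error only, and the reads carry no molecular identifiers. The gap between the replicates was wider than these intervals.

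Mir296, near Gnas, stood at 5074 CPM in replicate 1 and 4220 CPM in replicate 2, a mean of 4647 ± 604 CPM (SD, n = 2). Its neighbour Mir298 stood at 3935 and 3514 CPM, a mean of 3725 ± 297 CPM. Mir483, the miRNA of the growth factor gene Igf2, stood at 3823 and 3048 CPM, a mean of 3436 ± 548 CPM. By mean level these 3 ranked 48, 55 and 57 among the listed genes. Mir296 was above both others in each library. Mir298 was also above Mir483 in each library, though their ranges over the 2 libraries overlapped.

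Mir675, from the maternally expressed H19, stood at 155 CPM in replicate 1 (535 counts, exact 95% interval 142 to 169) and 185 CPM in replicate 2 (654 counts, 171 to 200), a mean of 170 ± 21.1 CPM (SD, n = 2) and rank 183. It was the one member with a higher CPM in replicate 2. Summed by the allele known to be active at the host, the 4 paternal members came to 65917 CPM in replicate 1 and 58523 CPM in replicate 2. The single maternal member came to 155 and 185 CPM. Without Mir335, the other 4 members summed to 12987 and 10967 CPM.

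**Figure D2:**
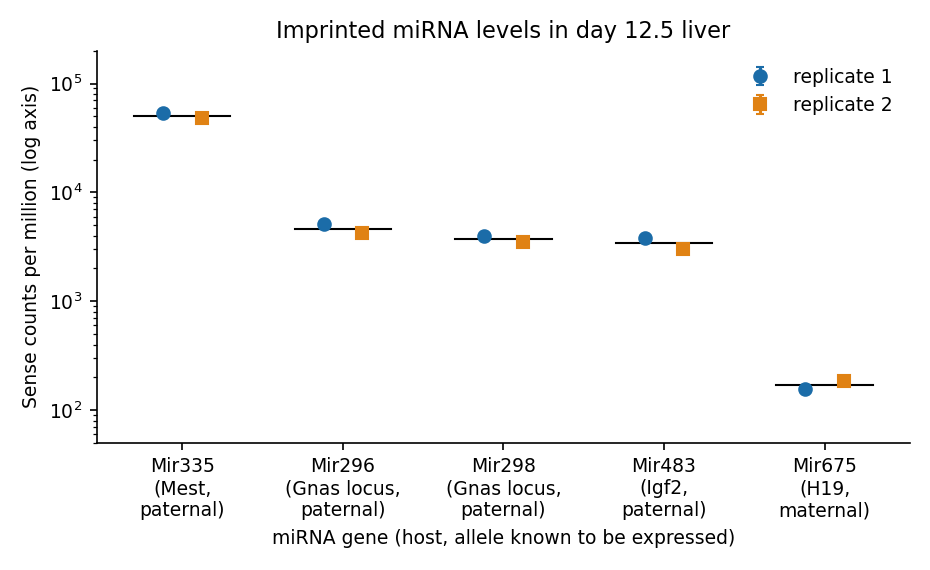
Levels in CPM (log y axis) of the 5 miRNA genes, with circles for replicate 1, squares for replicate 2, black lines for their mean and bars (mostly smaller than the symbols) for exact 95% intervals. Mir335 lies near 50413 CPM, Mir296, Mir298 and Mir483 between 3048 and 5074 CPM, and Mir675 below 200 CPM.

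Ratios of 2 members within a library need no library scaling. Mir335 exceeded Mir296, the next in order, by 10.5 times in replicate 1 (exact 95% interval 10.3 to 10.6) and 11.3 times in replicate 2 (11.1 to 11.5). Mir296 exceeded Mir298, its neighbour on the chromosome, by 1.29 times (1.26 to 1.32) and 1.20 times (1.17 to 1.23). Mir298 exceeded Mir483 by 1.03 times (1.005 to 1.054) and 1.15 times (1.12 to 1.18). The difference of their means was smaller than the SD of Mir483, but both genes were lower in replicate 2, and that SD holds such a shared shift. With counts divided by hairpin length, an alternative added after the values were seen, the ratio of Mir298 to Mir483 became 0.971, so their order is not settled. The order of the other 9 pairs was the same on that scale. Each read comes from 1 short RNA, but without molecular identifiers, copies of the same RNA cannot be told from separate RNAs. Capture efficiency was not measured either, and the ratios need not be ratios of molecules.

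The ratio of the Igf2 miRNA to the H19 miRNA shifted most between the libraries. Mir483 exceeded Mir675 by 24.6 times in replicate 1 (exact 95% interval 22.6 to 26.9) and 16.5 times in replicate 2 (15.2 to 17.9), a 1.50-fold shift. By two-sided Fisher's exact test with Benjamini-Hochberg adjustment over the 10 pairs, 9 ratios differed between the libraries. They included all 4 pairs with Mir675, shifted by 1.33 to 1.50 times, and 5 of 6 pairs without it, shifted by 1.04 to 1.13 times. For Mir483 over Mir675 the adjusted p was 6.41e-11 (Fisher's exact test). The exception was Mir335 over Mir298, at 13.5 and 13.6 times (adjusted p = 0.589, Fisher's exact test). This test sets 1 library against 1 and allows for counting error only, so it compares these 2 libraries. The 10 pairs are built from 5 genes, so their results are not independent. All 4 pairs with Mir675 use the same counts of that gene.

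**Figure D3:**
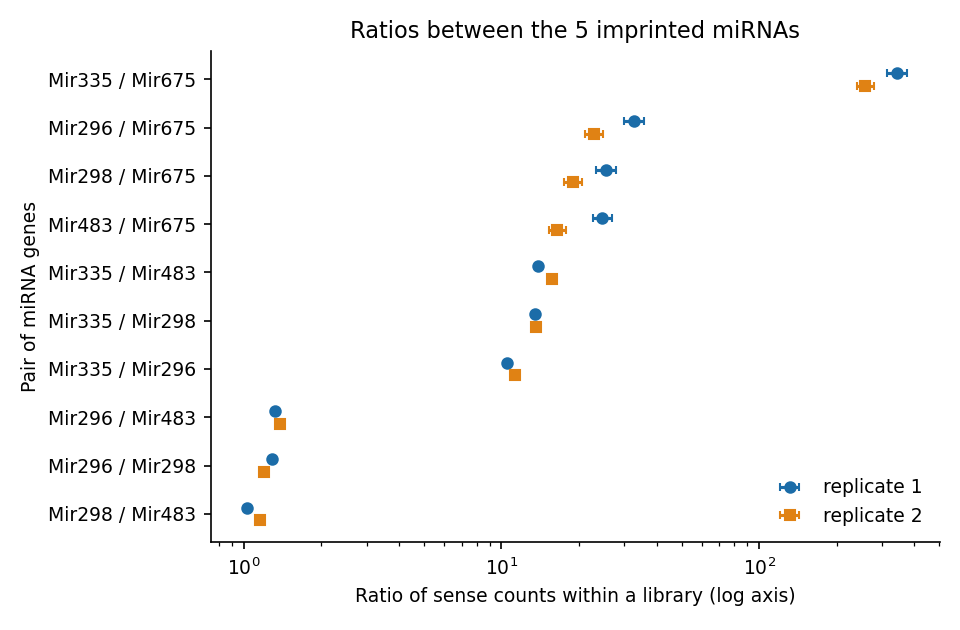
Ratio of sense counts for each of the 10 pairs (log x axis), with circles for replicate 1, squares for replicate 2 and bars for exact 95% intervals. The intervals overlap between the replicates only for Mir335 over Mir298, which is nearly the same in both, and for Mir296 over Mir483. Shifts are widest in the 4 pairs with Mir675, from 24.6 to 16.5 for Mir483 over Mir675.

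Across all genes, 4 members were lower and Mir675 was higher in replicate 2, by an exact binomial test (two-sided, library sizes scaled by edgeR's trimmed mean method, TMM) with Benjamini-Hochberg adjustment over 464 genes with at least 10 counts. With the members included, that test called 187 of the 464 (40.3%), 104 of them higher (22.4%) and 83 lower (17.9%), since at this depth small differences exceed counting error. With the minimum set to 100 counts, which every member passed, it called 184 of 289 genes (63.7%). Scaled to total counts, 77 of the 464 genes were higher and 101 lower, and the calls and directions of the 5 members were the same. The log2 ratio of replicate 2 over replicate 1 was -0.26 for Mir483 (95% interval -0.30 to -0.23), -0.20 for Mir296, -0.10 for Mir298 and -0.09 for Mir335 (-0.10 to -0.08). It was 0.32 for Mir675 (0.15 to 0.48), whose exact binomial test gave an adjusted p of 0.00054. For Mir335, with the smallest ratio, the exact test gave an adjusted p of 2.55e-75, which reflects its depth. The median over the members was -0.10, beside 0.03 over the 464 genes.

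These differences were no larger than those of many other genes. Among 289 genes with at least 100 counts, 73.4% had a smaller absolute log2 ratio than Mir675, 65.4% a smaller one than Mir483, 53.3% than Mir296, 28.0% than Mir298 and 25.3% than Mir335. In edgeR's negative binomial exact test, which adds spread beyond counting error, 0 of the 5 members passed at an assumed coefficient of variation of 0.1, and 0 had an unadjusted p below 0.05. That test called 12 of 464 genes (2.59%). With the coefficient of 0.162 estimated from these same libraries it called 5 genes (1.08%). Again 0 members passed and 0 had an unadjusted p below 0.05. That estimate counted the difference between the 2 libraries as spread, so few calls follow from its construction. For Mir675 the adjusted p at 0.1 was 0.637 and for Mir483 it was 0.683 (edgeR exact test).

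**Figure D4:**
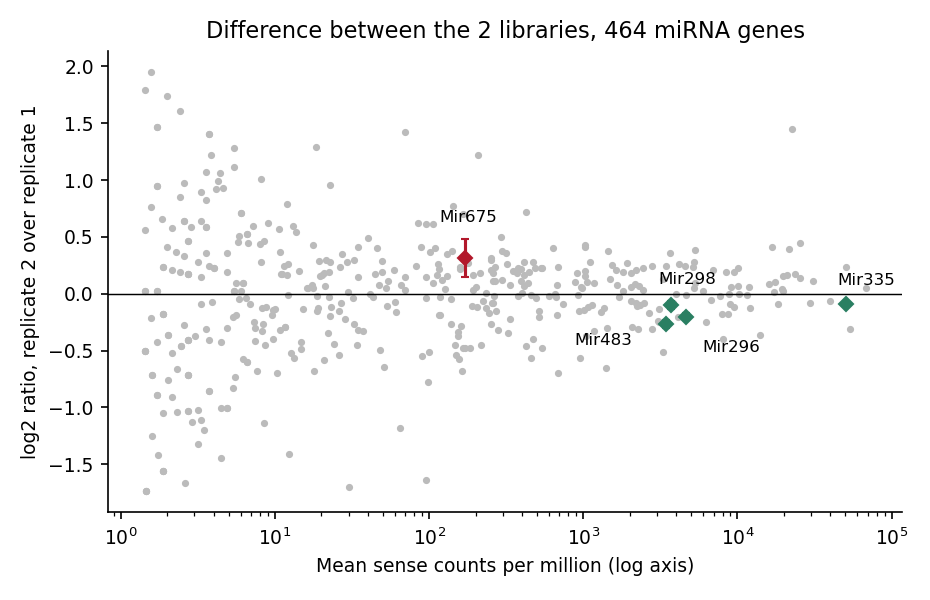
log2 ratio of replicate 2 over replicate 1 (y axis) against mean CPM (log x axis) for the 464 genes tested, with the members as diamonds, green for paternal and red for maternal hosts, and bars for exact 95% intervals. Mir675 lies above 0 at 0.32 and the other 4 lie between -0.26 and -0.09, all inside the cloud of other genes.

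Tissue markers also moved between the libraries. The hepatocyte miRNA Mir122 was at 60913 CPM in replicate 1 and 47128 CPM in replicate 2, a log2 ratio of -0.31, and the endothelial Mir126a was at 68816 and 68165 CPM. All 3 listed erythroid genes reached 10 CPM, and their sum was 16926 CPM in replicate 1 and 37430 CPM in replicate 2. Most of that change lay in Mir451a, at 12422 and 32496 CPM with a log2 ratio of 1.45. Mir144 was at 3300 and 4042 CPM (log2 ratio 0.36), while Mir486 was lower in replicate 2, at 1204 and 892 CPM (log2 ratio -0.37). The part of these markers in the differences of the imprinted miRNAs was not tested. Of the 5 mesenchyme genes 4 reached 10 CPM, with sums of 23576 and 25485 CPM, and the myeloid Mir223 was at 6929 and 5584 CPM. The 5 listed brain genes summed to 1.74 and 1.13 CPM, with Mir9-2 and the 3 Mir124a genes at 0. Heart and skeletal muscle genes summed to 421 and 677 CPM, with 3 of 7 past 10 CPM. These were Mir206 at 129 and 288 CPM (log2 ratio 1.22), Mir208b at 39.2 and 101 CPM (1.43) and Mir499 at 250 and 282 CPM (0.24). Mir133b was at 2.32 and 5.38 CPM, and Mir1a-1, Mir133a-1 and Mir133a-2 were at 0. A 0 allows up to 0.870 CPM in replicate 1 and 0.849 CPM in replicate 2 for uniquely aligned reads. Reads aligned to several places were left out of the counts, so for a marker with near-identical copies a 0 does not show absence.

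The genes whose levels in the 2 libraries were nearest to each member were found by the distance of log2 CPM over both libraries, among genes with at least 100 counts. Nearest to Mir335 were Mir122 (distance 0.20) and Mir17 (0.23), and nearest to Mir483 were Mir298 (0.21) and Mirlet7d (0.21). Mir298 was nearest to Mir1193 (0.07) and Mir140 (0.16), Mir296 to Mir351 (0.14) and Mir139 (0.25), and Mir675 to Mir6236 (0.12) and Mir500 (0.14). With 2 libraries this likeness is one of level only. By mean CPM, Mir335 lay within the SD of Mir17, the gene above it, and above Mir26b at 39951 ± 2548 CPM (SD, n = 2) by more than either SD. Each of the other 4 members differed from either neighbour in rank by less than the larger SD of that pair of genes. The neighbours were Mir425 and Mir351 for Mir296, Mir1193 and Mir144 for Mir298, Mir144 and Mir434 for Mir483, and Mir505 and Mir96 for Mir675.

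Among miRNA genes of imprinted loci, Mir335 was the most abundant. The comparison took the 53 listed genes between Meg3 and Mirg, the maternally expressed Dlk1-Dio3 cluster, and the 107 within Sfmbt2, a paternally expressed locus. Mir335 ranked 1 of these 165 genes, Mir296 13, Mir298 15, Mir483 16 and Mir675 46. The highest Dlk1-Dio3 gene, Mir411, stood at 22576 CPM in replicate 1 and 24372 CPM in replicate 2, below Mir335 in both. Its level is uncertain, because its hairpin has 20 bases in common with Mir758. Mir296 was exceeded by 11 of the 53 Dlk1-Dio3 genes, Mir298 and Mir483 by 12 each and Mir675 by 36.

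The 5 members together held 6.24% ± 0.521 (SD, n = 2) of the counts, the Dlk1-Dio3 genes 17.7% ± 0.211 and the Sfmbt2 genes 0.907% ± 0.0197. In Dlk1-Dio3, 43 of 53 genes reached 10 CPM in both libraries, with a median of 633 CPM over all 53. In Sfmbt2, 8 of 107 did, and 74 had 0 counts in both. The highest Sfmbt2 gene, Mir467c, stood at 3199 and 3353 CPM. In that cluster 104 of 107 hairpins share 20 bases with another gene, beside 7 of 53 in Dlk1-Dio3 and 0 of 5 members. Reads aligned to several places, 28.8% and 31.1% of all reads, were left out of the counts, so the Sfmbt2 levels in particular can be too low. By the exact binomial test, 17 of 46 tested Dlk1-Dio3 genes were higher and 15 lower in replicate 2, with a median log2 ratio of 0.03. Of 15 tested Sfmbt2 genes, 1 was higher and 2 lower. Over all 464 tested genes the same test called 22.4% higher and 17.9% lower. With a minimum of 100 counts it called 63.7% of genes in either direction. Whether the members differ from these clusters in the share of calls was not tested.

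**Figure D5:**
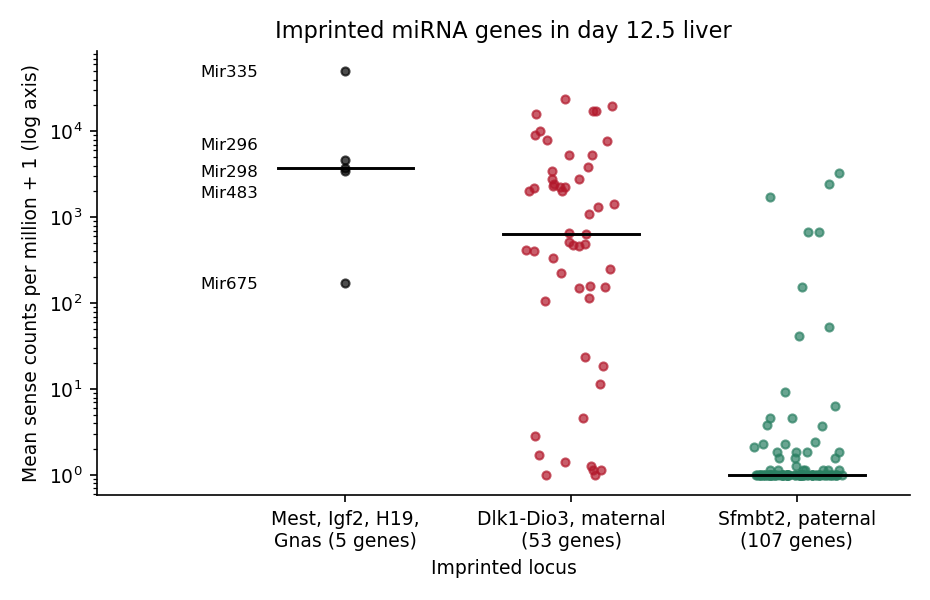
Mean CPM plus 1 (log y axis) of each miRNA gene at the loci of Mest, Igf2, H19 and Gnas (5 genes), Dlk1-Dio3 (53) and Sfmbt2 (107), with black lines for the median of each set. Mir335 lies above every Dlk1-Dio3 and Sfmbt2 gene, Mir675 lies below the Dlk1-Dio3 median of 633 CPM, and most Sfmbt2 genes are at 0.

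The counts of the members lay almost wholly on the sense strand. Mir335 had 1 opposite-strand count in replicate 1 and 3 in replicate 2, Mir675 had 1 and 0, and Mir483, Mir296 and Mir298 had 0 in both. Over all listed genes, opposite-strand counts came to 374792 and 363712. As a share of all reads, counted or not, Mir335 made up 1.66% and 1.53% and Mir675 0.00484% and 0.00594%.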

How the data were processed

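Short RNA from 2 pools of day 12.5 mouse liver was sequenced. The authors deposited raw read counts per miRNA gene for both strands, the sense strand and the opposite strand. Per the deposited file lists, the alignment used mm10 and the gene models GENCODE M4. For aligner and counter, names were not given in the sources used here. Of 11057424 and 11013976 reads (replicates 1 and 2), 31.2% and 32.1% were sense counts. Lines for unmapped (29.4% and 25.8%), multiply aligned (28.8% and 31.1%), sense-unassigned (10.6% and 11.0%) and ambiguous reads (1 and 0) entered neither library sizes nor tests.

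Of 1973 identifiers, 1894 were named through GENCODE M21. CPM, exact intervals and binomial and Fisher's tests were computed in Python 3.11.15 with SciPy 1.17.1, at an adjusted threshold of 0.05. A log2 ratio has 0.5 counts added. TMM factors and negative binomial exact tests came from edgeR 4.0.16 (R 4.3.3), and median-of-ratios size factors from DESeq2 1.42.0. The binomial test was tested on simulated data. Mature sequences came from RefSeq (GRCm38.p6).

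Named genes were the 5 members, their neighbours in rank, the 2 nearest in level, the highest gene of each compared cluster and tissue markers. The tissue markers planned to be named were Mir122, Mir126a and Mir451a. The remaining marker genes named are Mir223, Mir486, those at 0 and the other heart and skeletal muscle genes. These were added after the values were seen. Genes sharing bases 2 to 7 were also chosen after their values were seen. The members and lists were chosen with earlier results of these data known. The alternatives were both-strand counts, other denominators, scalings, count minimums and spreads, and leaving out each replicate.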

Additional observations from a re-analysis of the deposited data

How the results depend on the processing

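The directions of the 5 members between the libraries held with total counts, DESeq2 size factors, both-strand counts and count minimums of 1 and 100. The DESeq2 size factors were 1 for both libraries, so that setting compared unscaled counts. In all these settings the members also stayed on the same side of the threshold. Both negative binomial tests ended these calls, with 0 members and 12 genes called at a coefficient of variation of 0.1 and 0 members and 5 genes at the estimated one. These tests allow for spread between libraries, which the binomial test does not. The estimated coefficient counted the difference between these same libraries as spread, so few calls at that setting follow from its construction. With all reads as denominator the mean levels were 15937 CPM for Mir335, 1468 for Mir296, 1177 for Mir298, 1085 for Mir483 and 53.9 for Mir675. With both-strand counts, whose total is larger, Mir335 stood at 45584 CPM and Mir298 at 3368 CPM, the paternal sum at 56259 CPM, Dlk1-Dio3 at 16.0% and Sfmbt2 at 0.820%. Without genes that share 20 bases, Dlk1-Dio3 held 13.4% and Sfmbt2 0.000171%. Divided by hairpin length, Mir298 over Mir483 turned to 0.971. Leaving out 1 replicate gave Mir335 levels between 47740 and 53085 CPM, Mir675 levels between 155 and 185 CPM, and ratios of Mir483 to Mir675 between 16.5 and 24.6. No test between the libraries is left without either. No paired analysis was possible because the labels give a single group. Depth limited no member's detection, and Mir675, with 535 and 654 counts, had the widest intervals relative to its level.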
